A study of Homo sapiens with 4 samples.

Results

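The cyclin-dependent kinase (CDK) inhibitors and the D cyclins were examined in Reh-6-MPR cells, a 6-mercaptopurine (6-MP) resistant derivative of Reh, a long-established human line from a B-cell precursor leukemia. The members were picked out of the table by gene symbol, from a list made with earlier results of these data known: CDKN1A, CDKN1B, CDKN1C, CDKN2A, CDKN2B, CDKN2C, CDKN2D, CDKN3, CCND2 and CCND3, 10 genes in all. Of these, 8 were matched to a row among the 29833 genes of the expression table, and 7 had a mean of at least 1 FPKM over the libraries, as did 12750 genes of the table. FPKM is the number of reads of a gene divided by its length in kilobases and by the read total of the library. CDKN2A and CDKN2B were not analysed here. Poly(A) RNA was sequenced from 4 cultures, 1 library for each treatment. The vehicle library came from cells given PBS, the histidine library from cells given histidine at 4 mM, the 6-MP library from cells given 6-MP at 1.0 μg/mL, and the combined library from cells given both agents at these doses, all for 48 h. All 4 libraries come from 1 resistant line with the genotype label WT, and the resistant phenotype is shared by the vehicle control. The line was selected by rising 6-MP exposure and held without the drug ahead of the experiment, and whether it is 1 clone is not stated. The comparisons ask how the transcripts of the G1 brakes and of the cyclins they act on differ when histidine is added to a drug that these cells resist.

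D cyclins bind CDK4 and CDK6 and start the phosphorylation of the retinoblastoma protein, which frees E2F factors and opens the way from G1 into S phase. Inhibitors of the INK4 family (CDKN2A to CDKN2D) bind the monomeric CDK4 and CDK6 and keep D cyclins from them, whereas those of the CIP/KIP family (CDKN1A to CDKN1C) bind assembled complexes of cyclins and kinases and block CDK2 in particular. CDKN3 is a phosphatase that removes the activating phosphate from CDKs. In B-cell precursors, CCND2 and CCND3 couple cytokine and pre-B receptor signals to division, and CDKN1A is a classical DNA damage response gene, damage being the kind of lesion that thiopurines cause.

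Each treatment has 1 library, so differences carry no replicate check and no p-value, and a difference between libraries cannot be told apart from a difference between cultures of the same treatment. Each level is an FPKM value, and each difference is one of log2(FPKM + 1) with a call where its size is at least 1. This scale understates the change of genes with low levels. Folds are ratios of reads, recovered from the steps of the FPKM values and set against the library totals of 12899122 to 15486376 reads. Their 95% exact intervals cover counting error only and compare libraries, not treatments. The combined library differed from the others over the whole table: the median of all genes that passed the filter was 0.13 higher than in vehicle on the log2(FPKM + 1) scale, and scaling by median ratios lowers every log2 ratio of the combined library by 0.24 against vehicle, 0.20 against histidine and 0.24 against 6-MP. Of 10 B-lineage markers 9 were matched, all at 1 FPKM or more in every library, with a summed level of 1540 to 1630 FPKM. None of 5 T cell markers was matched. The 4 myeloid markers matched of 6 summed to 28.8 FPKM in vehicle and 43.7 in the combined library, mostly MPO. MPO, LYZ and CSF1R were each highest in the combined library. LYZ was at 0.324 FPKM in vehicle and 1.39 in the combined library, and CSF1R at 0.624 and 1.25. Only CD14 was not highest there, and it stayed between 0.0392 and 0.170 FPKM. The part of these markers in the results was not tested. In bulk RNA, fewer cells with a transcript and less of it per cell cannot be told apart.

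Reference promoters are shown for the members with the largest differences in the combined library, CDKN1A and CDKN2D, and for CDKN3, the member named as an inhibitor that was lower there. The RefSeq table (GRCh38.p14) gave windows from 250 bases before to 50 bases after the start site for 6 of the 8 members. CDKN1C and CCND2 were not matched. Only the part ahead of the first exon in GENCODE 29 is printed, 5′ to 3′ on the strand of the gene. Capitals mark matches on either strand to the GC box (GGGCGG), the CCAAT box (CCAAT) and the cell cycle homology element CHR (TTTGAA).
CDKN1A promoter, chr6:36678464-36678657, plus strand: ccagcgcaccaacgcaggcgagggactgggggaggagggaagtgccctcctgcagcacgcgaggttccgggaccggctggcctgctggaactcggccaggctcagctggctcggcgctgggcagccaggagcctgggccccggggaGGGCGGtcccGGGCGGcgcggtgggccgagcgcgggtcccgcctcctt
CDKN2D promoter, chr19:10569060-10569229, minus strand: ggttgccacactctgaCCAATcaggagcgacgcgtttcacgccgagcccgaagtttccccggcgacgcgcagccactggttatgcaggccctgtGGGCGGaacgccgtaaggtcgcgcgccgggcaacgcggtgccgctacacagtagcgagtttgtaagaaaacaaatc
CDKN3 promoter, chr14:54396757-54396848, plus strand: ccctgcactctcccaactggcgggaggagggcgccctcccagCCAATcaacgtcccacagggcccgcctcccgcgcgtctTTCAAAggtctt
The CDKN1A stretch lies between exons of longer CDKN1A transcripts, and 96 of its bases also lie inside DINOL, a long noncoding RNA on the opposite strand. It holds 2 GC boxes, and its whole window holds 4 and none of the other motifs searched. The CDKN2D stretch holds 1 CCAAT box and 1 GC box. The CDKN3 stretch holds 1 CCAAT box and 1 CHR, the element known from promoters of genes expressed in G2 and M phase. Among all 35116 promoter windows of the table, 45.0% hold a GC box, 34.6% a CCAAT box and 15.2% a CHR. The E-box (CACGTG) occurs in 7.26% of windows, TATAAA in 11.5% and the E2F sites TTTCCCGC or TTTGGCGC in 2.27%. Apart from an E-box in windows of CDKN2C, no member window held any of these, which says only that these letters are not in these windows. A match is a description of the reference sequence and not evidence that a factor binds there.

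CDKN1A, the CIP/KIP inhibitor known as p21, stood far higher in the combined library than in any other. The gene (ENSG00000124762) spans chr6:36676460-36687337 on the plus strand of GRCh38. Its level was 48.6 FPKM in vehicle, 42.8 in histidine, 41.4 in 6-MP and 155 in the combined library. The exact Poisson interval was 46.6 to 50.8 FPKM in vehicle and 151 to 159 in the combined library. The 3 other libraries lay within 1.17-fold of each other, and the combined library was 3.19-fold above vehicle (95% interval 3.03 to 3.35), 3.62-fold above histidine (3.44 to 3.81) and 3.74-fold above 6-MP (3.55 to 3.94). These comparisons share the combined library, and vehicle serves as the control of 3 comparisons, so they are not independent of each other. With either agent alone the level was slightly lower than in vehicle, at 0.881-fold with histidine (0.828 to 0.937) and 0.852-fold with 6-MP (0.800 to 0.907). By its log2 difference CDKN1A ranked 148 from the top of the 12750 genes against vehicle, 88 against histidine and 86 against 6-MP. It was called in all 3 comparisons, in which 6.53%, 5.55% and 6.02% of all genes tested were called. Its level passed those of CDKN2C and CCND3, which were both above it in the other 3 libraries. DINOL, whose RNA is transcribed across the same promoter from the other strand, had 1 read in vehicle, 0 in histidine, 3 in 6-MP and 19 in the combined library. For DINOL, the log2 read ratio of the combined library to vehicle was 4.40 with an interval of 1.75 to 9.78, which spans a wide range because vehicle holds 1 read. The library kit marks strand, but the strand setting of the counting is not given in the sources used here, and the DINOL counts are small beside the 1905 to 5992 reads of CDKN1A.

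**Figure D1:**
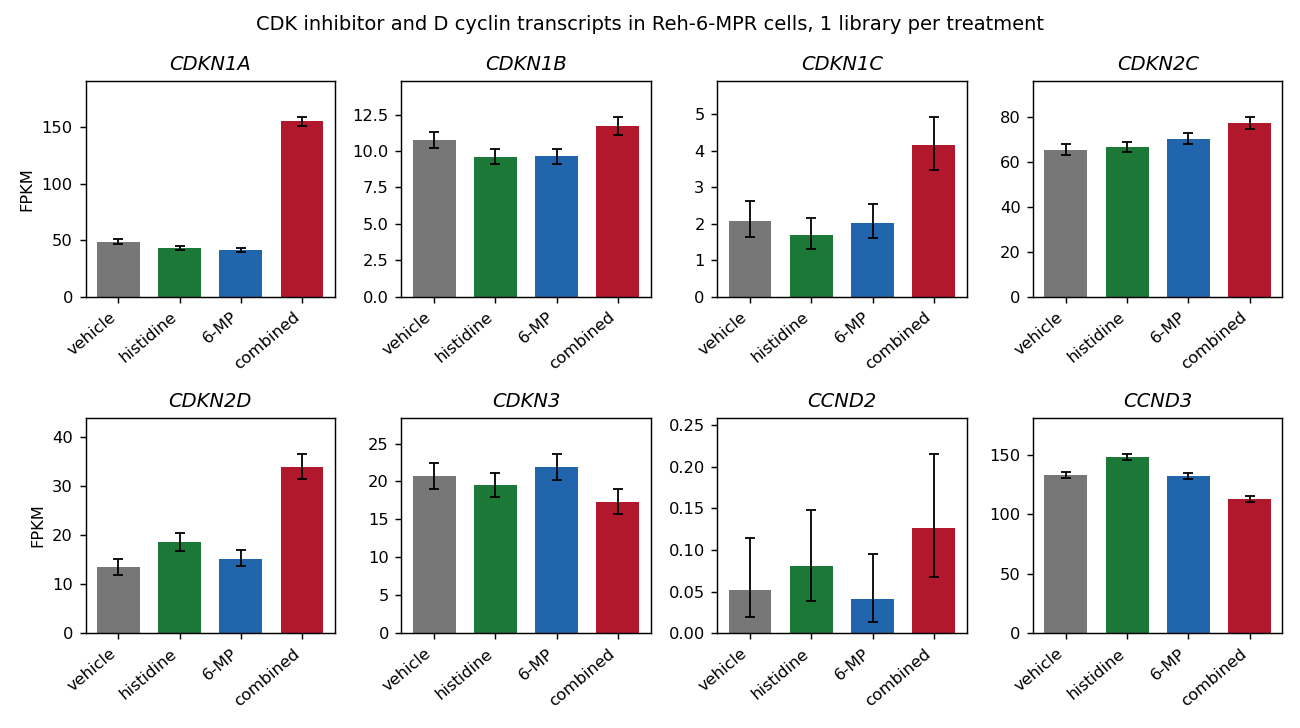
Level of each member in each library, as FPKM in bars from 0 with a linear axis of its own for each gene and exact 95% Poisson intervals (counting error only). The combined library is highest for CDKN1A at 155 FPKM and for CDKN2D at 33.9 FPKM, and lowest for CDKN3 at 17.3 FPKM and for CCND3 at 113 FPKM.

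CDKN1B, the CIP/KIP inhibitor known as p27, differed little. The gene (ENSG00000111276) spans chr12:12685498-12722369 on the plus strand. It was at 10.7 FPKM in vehicle, 9.59 in histidine, 9.63 in 6-MP and 11.7 in the combined library. The combined library was 1.22-fold above histidine (1.13 to 1.32) and 1.22-fold above 6-MP (1.13 to 1.31), while its 1.09-fold ratio to vehicle (1.01 to 1.17) turned below 1 when libraries were scaled by median ratios, with a log2 difference of -0.11 in place of 0.11. The intervals against histidine and 6-MP also include no difference under that scaling. Both single-agent libraries were lower than vehicle, at 0.893-fold with histidine and 0.896-fold with 6-MP. The length behind the CDKN1B values is 9255 bases, against 2811 in GENCODE 29. If all its reads lay within the shorter model, the level would be 35.4 FPKM in vehicle and 38.6 in the combined library. Its place among the members therefore rests on the gene model. The ratios of CDKN1B between libraries do not depend on the length used as divisor, but the gene model also sets which reads are counted. GPR19, a receptor gene that overlaps CDKN1B on the opposite strand, had 77 reads in vehicle, 76 in histidine, 82 in 6-MP and 168 in the combined library, against 1367 to 1424 reads for CDKN1B. Whether reads in the shared stretch were assigned to either gene was not tested.

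CDKN1C, the imprinted CIP/KIP inhibitor known as p57, was the least abundant of the 3. The gene (ENSG00000129757) spans chr11:2883213-2885775 on the minus strand. It was at 2.08 FPKM in vehicle, 1.69 in histidine, 2.02 in 6-MP and 4.16 in the combined library, from 74, 65, 77 and 133 reads. The combined library was 1.99-fold above vehicle with an interval of 1.49 to 2.69, and 2.46-fold above histidine with an interval of 1.81 to 3.36. At this low level its differences of 0.74, 0.94 and 0.77 against vehicle, histidine and 6-MP stayed under the threshold of 1 on the log2(FPKM + 1) scale. The single-agent libraries could not be distinguished from vehicle at this depth, with intervals of 0.573 to 1.15 for histidine and 0.696 to 1.35 for 6-MP. Among 9 listed genes of the imprinted 11p15 region around CDKN1C, 7 were matched and 4 passed the filter, and none of these 4 was called in any comparison. The largest differences of the combined library from vehicle among them were 0.53 for KCNQ1, a potassium channel gene, and -0.20 for TSSC4.

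CDKN2D, the INK4 inhibitor known as p19, was the second member with a call. The gene (ENSG00000129355) spans chr19:10566460-10569059 on the minus strand. It was at 13.5 FPKM in vehicle, 18.5 in histidine, 15.2 in 6-MP and 33.9 in the combined library, from 290, 432, 351 and 658 reads. The combined library was 2.52-fold above vehicle (2.19 to 2.90), 2.23-fold above 6-MP (1.96 to 2.55) and 1.83-fold above histidine (1.62 to 2.07). Unlike CDKN1A, it was also higher with histidine alone, 1.38-fold above vehicle with an interval of 1.18 to 1.60, and its log2 difference there ranked 498 of the 12750 genes. With 6-MP alone the ratio was 1.13 with an interval of 0.964 to 1.32. Its differences of 1.27 against vehicle and 1.11 against 6-MP passed the threshold, and that of 0.84 against histidine did not. Under median-ratio scaling the difference from 6-MP was 0.88 and no longer a call, while that from vehicle stayed one at 1.04.

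CDKN2C, the INK4 inhibitor known as p18 and a brake on division in B-lineage cells, was the most abundant inhibitor in the vehicle, histidine and 6-MP libraries. The gene (ENSG00000123080) spans chr1:50960745-50974634 on the plus strand. It was at 65.4 FPKM in vehicle, 66.8 in histidine, 70.4 in 6-MP and 77.3 in the combined library. The combined library was 1.18-fold above vehicle (1.12 to 1.24) and 1.10-fold above 6-MP (1.05 to 1.15) as deposited, but the log2 differences of 0.24 and 0.13 became -0.0021 and -0.099 under median-ratio scaling. The ratio to histidine of 1.16 (1.10 to 1.22) also came to an interval that includes no difference under that scaling. The CDKN2C difference of 0.24 from vehicle was close to the median-ratio shift of 0.24, which comes from genes above 0 in every library. It lay above the median of 0.13 over the genes that passed the filter. The ratio of CDKN2D to CDKN2C, which does not depend on library scaling, was 0.206 in vehicle, 0.278 in histidine, 0.216 in 6-MP and 0.438 in the combined library.

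The other INK4 genes, CDKN2A and CDKN2B, lie side by side at 9p21, a region often deleted in B-cell leukemia. Of 14 listed genes of that region, 3 were matched, and the rest were not analysed here. FOCAD was listed at 0 in vehicle, histidine and 6-MP and at 0.0077 FPKM in the combined library, from 1 read. CAAP1 and PLAA passed the filter, with differences of -0.34 and 0.22 between the combined library and vehicle, and neither was called.

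CDKN3, the CDK phosphatase, was lower in the combined library, in the opposite direction to CDKN1A and CDKN2D. The gene (ENSG00000100526) spans chr14:54396849-54420218 on the plus strand. It was at 20.7 FPKM in vehicle, 19.5 in histidine, 21.9 in 6-MP and 17.3 in the combined library, from 543, 554, 616 and 410 reads. The combined library was at 0.838-fold of vehicle (0.735 to 0.954) and 0.792-fold of 6-MP (0.697 to 0.898), and its ratio to histidine of 0.889 had an interval of 0.780 to 1.01. The difference of -0.24 from vehicle was far from the threshold. Under median-ratio scaling it was -0.47, and the log2 read ratio to histidine was -0.37 with an interval of -0.56 to -0.19, which excludes 0. CDKN3 transcripts are known to peak with those of G2 and M phase genes. All 22 such genes on the list passed the filter. Of these, 7 were lower by at least 1 in the combined library than in vehicle, and none was higher. Of all 12750 genes tested, 193 were lower by at least 1 and 639 higher. The median difference of the list was -0.76 against 0.13 for all genes. In the list, CDC20, an activator of the anaphase-promoting complex, was at 156.6, 148.0, 143.9 and 35.3 FPKM in vehicle, histidine, 6-MP and the combined library. PLK1, a mitotic kinase, was at 44.9, 45.4, 42.0 and 9.63 FPKM, and HMMR, a spindle-associated gene, at 26.3, 26.6, 24.8 and 9.01 FPKM. The differences of the list from vehicle ranged from -2.12 to 0.0041. CDKN3, at -0.24, lay within that range, above the median of the list and near its upper end.

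CCND3, the D cyclin of these cells, was the most abundant member in the vehicle, histidine and 6-MP libraries. The gene (ENSG00000112576) spans chr6:41934934-42050357 on the minus strand. It was at 133 FPKM in vehicle, 149 in histidine, 132 in 6-MP and 113 in the combined library, from 8383 to 13254 reads. The combined library was at 0.845-fold of vehicle (0.822 to 0.870), 0.852-fold of 6-MP (0.828 to 0.876) and 0.759-fold of histidine (0.739 to 0.780). Histidine alone went the other way, 1.11-fold above vehicle with an interval of 1.09 to 1.14, and 6-MP alone was at 0.992-fold with an interval of 0.966 to 1.02. Its intervals are narrow because of its many reads, and none of its differences reached the threshold. Median-ratio scaling widened the difference of the combined library from vehicle from -0.24 to -0.48.

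CCND2, the other D cyclin examined, was close to absent. The gene (ENSG00000118971) spans chr12:4269771-4305353 on the plus strand. It had 6 reads in vehicle, 10 in histidine, 5 in 6-MP and 13 in the combined library, or 0.0525, 0.0808, 0.0408 and 0.126 FPKM. The combined library had 2.40-fold the level of vehicle with an interval of 0.853 to 7.72, so a difference from vehicle was not detectable at this depth. Against 6-MP the interval of 1.03 to 11.1 excludes 1 but rests on 5 and 13 reads, and it includes 1 under median-ratio scaling.

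**Figure D2:**
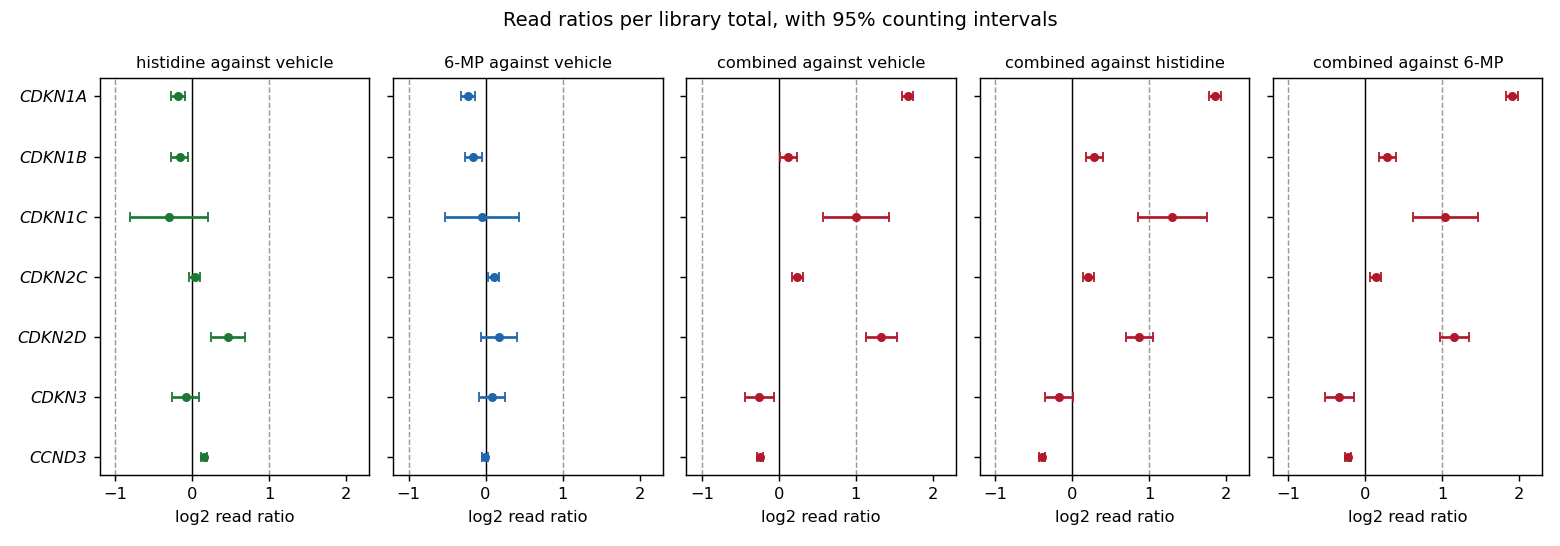
Log2 read ratio of each of the 7 members that passed the filter in each of the 5 comparisons, with 95% exact intervals from the recovered reads (counting error only). The 3 comparisons of the combined library place CDKN1A between 3.19-fold and 3.74-fold and CCND3 between 0.759-fold and 0.852-fold.

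Between the combined library and vehicle, 2 of the 7 members that passed the filter were called, CDKN1A and CDKN2D, both higher, where 6.53% of all genes tested were called and 5.01% were called higher. Against 6-MP, CDKN1A and CDKN2D were again called higher, beside 6.02% of all genes called and 4.82% called higher. The call of CDKN2D against 6-MP was lost under median-ratio scaling. Against histidine, 1 member, CDKN1A, was called higher, beside 5.55% of all genes called and 4.15% called higher. With a pseudocount of 0.1, CDKN1C was also called against histidine, at 1.25, and against 6-MP, at 1.00. None of the 7 was called in histidine against vehicle, where 1.33% of genes were, or in 6-MP against vehicle, where 1.18% were. With so few members, shares of the list say little next to these backgrounds. The counting intervals excluded a ratio of 1 for all 7 members between the combined library and vehicle, 5 above and 2 below, but they also did so for 63.6% of all genes tested, 42.7% above and 20.8% below. Under median-ratio scaling the member intervals were 3 above, 3 below and 1 that included a ratio of 1. In histidine against vehicle they excluded it for 4 members, 2 above and 2 below, beside 21.7% of all genes, 13.0% above and 8.74% below. In 6-MP against vehicle they excluded it for 3 members, 1 above and 2 below, beside 18.0% of all genes, 10.0% above and 7.95% below. The median difference of the members was 0.24 between the combined library and vehicle, beside 0.13 for all genes. It was -0.080 in histidine against vehicle and -0.012 in 6-MP against vehicle, beside 0.015 and 0.0039 for all genes.

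**Figure D3:**
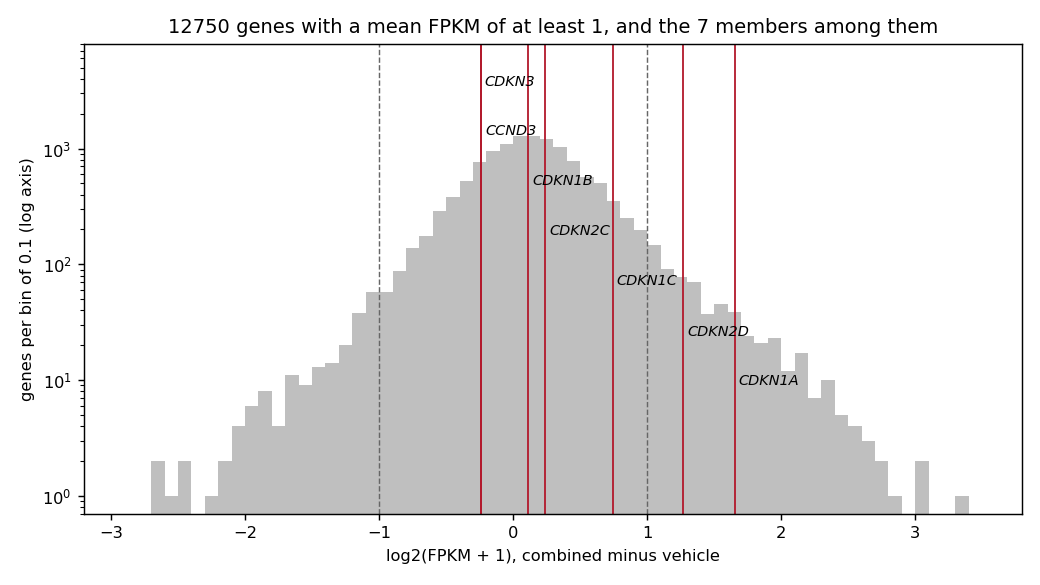
Histogram of the log2(FPKM + 1) difference between the combined library and vehicle over the 12750 genes that passed the filter (count on a log axis), with red lines for the 7 members and dashed lines at the threshold of 1 in either direction. CDKN1A at 1.65 and CDKN2D at 1.27 lie past the threshold, and CDKN1C at 0.74 lies short of it.

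The design holds both single agents, so the combined library can be set against the sum of their differences from vehicle. The departure from additivity on the log2(FPKM + 1) scale was 2.06 for CDKN1A, since both single agents lay below vehicle and the combined library above it. From reads its log2 departure was 2.09 with a 95% interval of 1.97 to 2.20 by a normal approximation to the counting error. The departure was 0.97 for CDKN1C (from reads 1.34, interval 0.71 to 1.97) and 0.67 for CDKN2D (0.70, interval 0.41 to 0.98). It was 0.41 for CDKN1B and 0.23 under median-ratio scaling. For CDKN2C it was 0.10, which turned to -0.089 under median-ratio scaling. The departures of CDKN3 and CCND3 were negative, at -0.24 and -0.38, and at -0.43 and -0.58 under median-ratio scaling. Over all genes tested the median departure was 0.11, with 4.85% of genes positive by at least 1 and 1.91% negative by at least 1. On this scale CDKN1A was the only one of the 7 members past 1, but with a pseudocount of 0.1 CDKN1C was past it too, at 1.29.

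Summed by family, the inhibitors stood higher relative to the D cyclins in the combined library than in the other 3. The 3 CIP/KIP genes summed to 61.5 FPKM in vehicle, 54.1 in histidine, 53.1 in 6-MP and 170.9 in the combined library, 2.78-fold over vehicle and 2.35-fold after median-ratio scaling. CDKN1A made up 79.1% of that sum in vehicle and 90.7% in the combined library. The 2 INK4 genes summed to 78.9, 85.3, 85.6 and 111 FPKM, 1.41-fold over vehicle in the combined library and 1.19-fold after scaling, and the share of CDKN2C went from 82.9% in vehicle to 69.5%. The D cyclins examined, CCND2 and CCND3, summed to 133.5, 148.6, 132.4 and 112.9 FPKM, nearly all of it CCND3. For this sum the combined library was at 0.846-fold of vehicle and 0.715-fold after scaling. CCND1, named here although no member, was at 0.381, 0.203, 0.219 and 0.635 FPKM in the same order and is not in the sum. The ratio of the summed CIP/KIP and INK4 inhibitors to the D cyclins was 1.05 in vehicle, 0.938 in histidine, 1.05 in 6-MP and 2.50 in the combined library. The ratio of CDKN1A to CCND3 was 0.364, 0.288, 0.313 and 1.37 in the same order. These sums take each FPKM at its deposited length, which for CDKN1B is longer than in GENCODE 29.

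**Figure D4:**
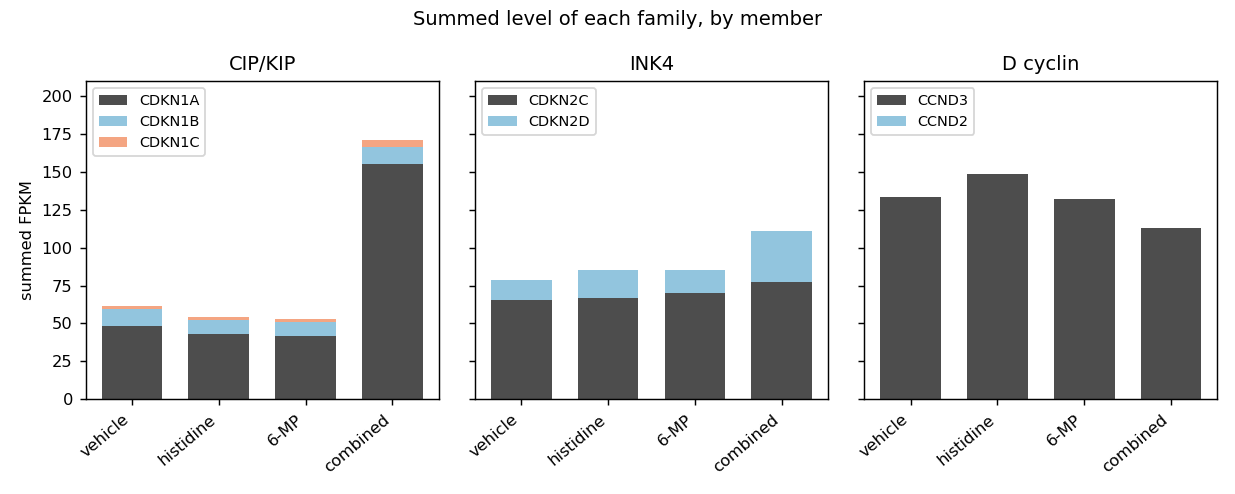
Summed FPKM of the CIP/KIP genes, the INK4 genes and the D cyclins in each library, stacked by member on a linear axis from 0, with 1 library per treatment. The CIP/KIP sum is 61.5 FPKM in vehicle and 170.9 in the combined library, and the D cyclin sum is 133.5 and 112.9.

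The order of levels was the same in vehicle and 6-MP, with CCND3 highest, then CDKN2C, CDKN1A, CDKN3, CDKN2D, CDKN1B, CDKN1C and CCND2, and the counting intervals of all neighbours lay apart. Histidine had the same order, but the intervals of CDKN3 and CDKN2D overlapped. In the combined library CDKN1A came first, ahead of CCND3 and CDKN2C, and CDKN2D passed CDKN3, again with all neighbours apart. The place of CDKN1B depends on its length, as described above.

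The genes around the members were grouped by role. Of 13 kinases and cyclins of G1 and S phase, 11 passed the filter, and none was called between the combined library and vehicle, with a median difference of 0.033. CCNE2, an E cyclin that activates CDK2, was at 6.20, 5.16, 5.69 and 12.6 FPKM in vehicle, histidine, 6-MP and the combined library. It was called against histidine, at 1.15, and against 6-MP, at 1.03, but not against vehicle, at 0.92. Its log2 read ratio to vehicle was 1.03 (0.85 to 1.21). With a pseudocount of 0.1, 1 gene of the list was called higher against vehicle, CCNE2. The kinases that D cyclins and INK4 proteins bind, chosen after their values were seen, were lower in the combined library without a call. CDK4 was at 44.3 FPKM in vehicle and 39.2 in the combined library, a difference of -0.17. CDK6 was at 135.7 and 110.9 FPKM, a difference of -0.29. Under median-ratio scaling no gene of this list was called in any comparison, so the calls of CCNE2 against histidine and 6-MP were lost.

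Of 15 genes that mark the inhibitors or D cyclins for degradation or act in their turnover, 14 passed the filter and none was called in any comparison. The largest differences between the combined library and vehicle were -0.42 for DDB1, the adaptor of CUL4 ligases that degrade CDKN1A, and -0.39 for CKS1B, the cofactor of SKP2 in CDKN1B degradation. DDB1 was at 35.2 FPKM in vehicle and 26.1 in the combined library, and CKS1B at 60.1 and 45.7.

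All 19 listed transcriptional regulators of the members passed the filter, and 1, MYC, was called. Between the combined library and vehicle 6.53% of all genes tested were called. With a pseudocount of 0.1, 1 gene of the list was called higher and 1 lower in that comparison. MYC, which represses CDKN1A and CDKN2B through ZBTB17, was at 70.4 FPKM in vehicle, 64.9 in histidine, 65.0 in 6-MP and 17.7 in the combined library, a difference of -1.93 from vehicle.

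Downstream of the members, 17 of 19 genes of the RB, E2F and DREAM complexes passed the filter. E2F7, a repressor of E2F targets, was the 1 gene called between the combined library and vehicle, with a difference of 1.12. In that comparison 6.53% of all genes tested were called and 5.01% were called higher. E2F7 was at 11.3, 11.7, 10.7 and 25.7 FPKM in vehicle, histidine, 6-MP and the combined library. The median of the list was 0.11, close to that of all genes, and under median-ratio scaling no gene of the list was called in any comparison. None of these 7 lists held a gene called in histidine or 6-MP against vehicle.

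**Figure D5:**
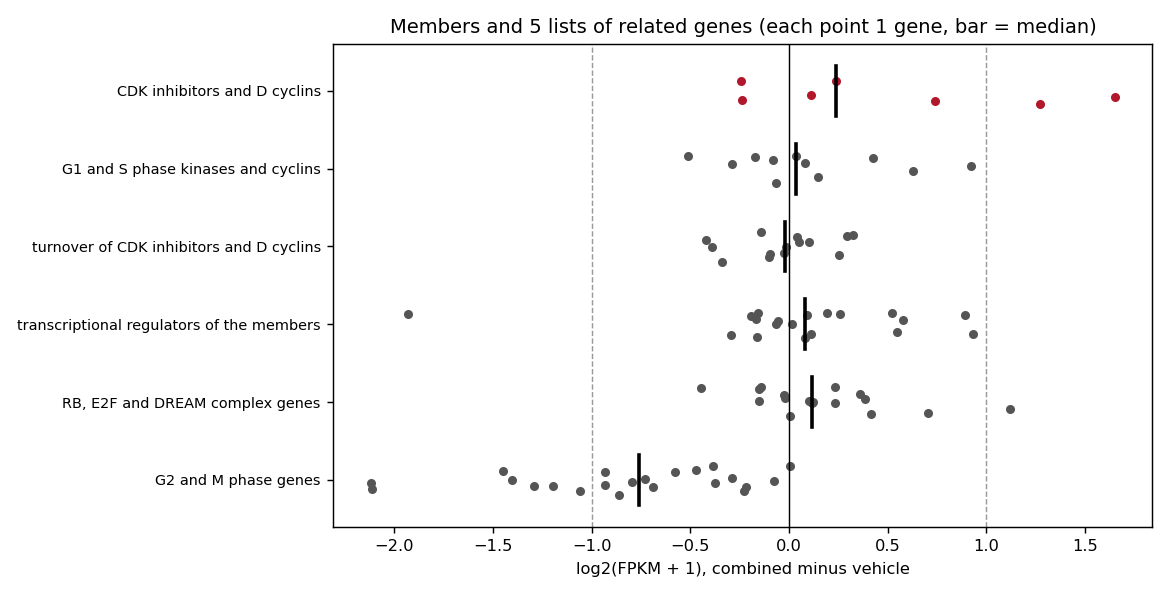
Log2(FPKM + 1) difference between the combined library and vehicle for each gene that passed the filter, by list, with 1 point per gene, the list median and the threshold of 1 in either direction. The G2 and M phase genes have a median of -0.76, while the 4 other lists plotted beside the members have medians between -0.021 and 0.11.

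The protein-coding genes with the pattern most like each called member were found among 6729 genes with a mean of at least 5 FPKM, by the largest gap in any of 3 log2 differences from vehicle. These are descriptions over 4 libraries. Nearest to CDKN1A was GADD45A, a gene of the DNA damage response, with a largest gap of 0.16 and levels of 12.2, 11.6, 11.6 and 39.3 FPKM. CD9, a tetraspanin, had a gap of 0.19, and EFNB1, an ephrin ligand, a gap of 0.20. Nearest to CDKN2D was YPEL3, with a gap of 0.076 and levels of 6.04, 8.02, 6.64 and 15.6 FPKM, followed by HMHB1 at 0.12 and CCNL2 at 0.14.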

How the data were processed

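Expression was measured by RNA-seq of poly(A) RNA (TruSeq Stranded mRNA) in 4 libraries of Reh-6-MPR cells, grouped by their treatment labels. The authors deposited FPKM values per gene with symbols and GRCh38 positions, and the submitters' processing notes name Trimmomatic, HISAT2, Cufflinks and HTSeq without giving their roles; the strand setting and annotation of the counting are not given in the sources used here. FPKM depends on the gene model and on the library total. Whole reads were recovered from the FPKM steps for 29832 of 29833 genes, with library totals of 14316493 (vehicle), 15486376 (histidine), 15342296 (6-MP) and 12899122 (combined).

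From the FPKM values, differences of log2(FPKM + 1) were computed for 12750 genes whose mean over the libraries reached 1 FPKM. An absolute difference of at least 1 was called. Exact Clopper-Pearson intervals (95%) were put on read ratios and exact Poisson intervals on levels; PCR duplicates are not separated, so both cover counting error only. No count model was fitted, since each treatment has 1 library. The named genes are all members, at most the 3 highest and 3 lowest called genes of each of 7 lists (the 2 largest differences where none was called) and the 3 genes most like each called member; others are marked. A further list and 1 gene are not reported here. Members and lists were chosen with earlier results of these data known. As alternatives, results were recomputed with median-ratio scaling, a pseudocount of 0.1, no filter, a minimum mean of 5 FPKM, and protein-coding genes only. The steps were first tested on simulated counts. The software was matplotlib 3.10.9, scipy 1.17.1, pandas 2.3.3 and numpy 2.4.6 under Python 3.11.15.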

Additional observations from a re-analysis of the deposited data

Results flagged for a closer look

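For CDKN1A, CDKN1B and CCND3 the addition of an agent went opposite ways without and with the other agent, with counting intervals of the log2 read ratio that exclude 0 both times. CDKN1C and CDKN3 also had opposite signs, but there at least 1 of the intervals includes 0. With 1 library per treatment, whether the effects differ was not tested. Adding histidine moved CDKN1A by -0.18 without 6-MP and by 1.88 with it, on the log2(FPKM + 1) scale. Adding 6-MP moved CDKN1A by -0.23 without histidine and by 1.83 with it. For CDKN1B, adding histidine gave -0.15 without 6-MP and 0.26 with it, and adding 6-MP gave -0.14 without histidine and 0.26 with it. For CCND3, adding histidine gave 0.15 without 6-MP and -0.23 with it. The counting intervals of all 10 log2 read ratios exclude 0 as deposited, but under median-ratio scaling those of CDKN1B with the other agent include it.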

How the results depend on the processing

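The genes called, over the whole table, were 170 in histidine against vehicle, 151 in 6-MP against vehicle, and 832, 707 and 767 in the combined library against vehicle, histidine and 6-MP. A pseudocount of 0.1 gave 389, 389, 1513, 1278 and 1397 in that order. Without a filter the single agents gave 374 (histidine) and 344 (6-MP), and the combined library gave 1119 against histidine and 1172 against 6-MP. A mean FPKM of at least 5 gave 21, 17, 303, 264 and 269, and protein-coding genes alone 19, 15, 422, 355 and 381; both test fewer genes. The combined library had 639 higher and 193 lower calls against vehicle, which became 407 higher and 337 lower under median-ratio scaling. Against histidine, 529 higher and 178 lower became 357 higher and 291 lower. Against 6-MP, 614 higher and 153 lower became 375 higher and 274 lower.

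CDKN1A was called in each comparison of the combined library under all 5 alternatives. Members called against histidine went from 1 to 2 with the pseudocount of 0.1, and against 6-MP from 2 to 1 under median-ratio scaling, where CDKN2D stood at 0.88. Median-ratio scaling also moved the departures from additivity to 1.86 for CDKN1A, 0.23 for CDKN1B, -0.089 for CDKN2C and -0.58 for CCND3. This scaling takes off the median shift of all genes above 0 in every library, not only of those that passed the filter. No paired analysis was possible because no treatment has a second library, and for the same reason no replicate could be left out. Depth limits CCND2, at 5 to 13 reads, and CDKN1C, at 65 to 133 reads.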
